A study of Mus musculus with 6 samples.

Results

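*Gpr50*, *Mtnr1a* and *Mtnr1b*, the orphan receptor gene and the genes of both melatonin receptors, were followed through gonadal white adipose tissue (GWAT) of leptin-deficient mice with and without Fsp27, a lipid droplet protein of adipocytes. They are 3 of the 19937 genes with a probeset of their own on the array, and each has 1 probeset (10600024 for *Gpr50*, 10571560 for *Mtnr1a*, 10591087 for *Mtnr1b*). *Gpr50* was chosen by its log2 difference between genotypes, a large decrease in the double mutant, so its levels and its difference between genotypes are given as a description, without a test. The receptors were taken for their kinship with *Gpr50* and not for their values. Males aged 4 months on a chow diet were either ob/ob, which lack leptin, or ob/ob/Fsp27-/-, which lack leptin and Fsp27, so leptin deficiency is shared by all arrays, and no mouse with leptin was analysed here. There were 3 GeneChip Mouse Gene 1.0 ST arrays per genotype, and the study's methods describe an RNA pool of 3 mice for every array, which is not in the labels. A value is an RMA value on the log2 scale, where 1 unit is a doubling of the signal, and n counts arrays, so p-values measure the spread between arrays and not between single mice.

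MT1, encoded by *Mtnr1a*, and MT2, encoded by *Mtnr1b*, are receptors of the pineal hormone melatonin that couple to inhibitory G proteins and lower cyclic AMP. GPR50 belongs to the same family but does not bind melatonin. It carries a long C-terminal tail, can pair with MT1 and lies on the X chromosome, and it is best known from the pituitary and from tanycytes of the hypothalamus. In a whole tissue such as GWAT, fewer cells of a type and less RNA per cell cannot be told apart.

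The starts of the 3 genes are shown because the genes belong to 1 family and yet differed in this tissue. Each sequence runs from 250 bases before the annotated start to 50 bases from it, as given by RefSeq on GRCm38.p6, and capitals mark matches to 9 searched motifs on either strand. *Gpr50* is at chrX:71663417-71663716 (+), *Mtnr1a* at chr8:45068857-45069156 (+) and *Mtnr1b* at chr9:15874507-15874806 (-).
Gpr50: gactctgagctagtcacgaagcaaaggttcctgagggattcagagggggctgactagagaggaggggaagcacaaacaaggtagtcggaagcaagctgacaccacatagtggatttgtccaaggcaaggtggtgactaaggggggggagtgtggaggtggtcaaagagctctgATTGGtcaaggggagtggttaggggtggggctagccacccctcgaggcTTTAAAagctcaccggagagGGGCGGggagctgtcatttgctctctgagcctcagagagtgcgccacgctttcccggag
Mtnr1a: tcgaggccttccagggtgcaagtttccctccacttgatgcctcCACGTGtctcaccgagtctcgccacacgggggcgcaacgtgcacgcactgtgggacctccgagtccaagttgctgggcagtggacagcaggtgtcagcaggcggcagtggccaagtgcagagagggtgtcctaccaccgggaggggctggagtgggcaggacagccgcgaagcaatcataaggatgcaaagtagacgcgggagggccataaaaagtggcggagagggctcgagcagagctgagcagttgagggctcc
Mtnr1b: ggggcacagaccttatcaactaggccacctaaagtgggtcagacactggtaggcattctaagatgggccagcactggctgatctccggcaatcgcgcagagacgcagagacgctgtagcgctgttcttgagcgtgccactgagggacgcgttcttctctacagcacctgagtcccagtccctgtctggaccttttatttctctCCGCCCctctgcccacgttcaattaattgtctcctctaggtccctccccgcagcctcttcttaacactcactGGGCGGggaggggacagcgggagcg
The search took the TATA box spelled TATAAA, its variant TTTAAA, the GC box spelled GGGCGG, the CCAAT box spelled as it is named, the E-box spelled CACGTG, the AP-1 motif spelled TGANTCA, the core of ETS factors spelled GGAAGT, the C/EBP motif spelled TTNNGCAA and the core of nuclear receptor sites spelled AGGTCA. The matches in these windows do not overlap. *Gpr50* holds TTTAAA 29 bases before its start, which 13.2% of 32851 promoter windows hold somewhere, a GC box 9 bases before it (35.7% of windows) and CCAAT on the other strand 77 bases before it (37.4%). *Mtnr1a* holds an E-box 207 bases before its start (7.15%), and *Mtnr1b* holds GC boxes 47 bases before and 25 bases after it. The letters of the TATA box, which 13.6% of windows hold, and of the AP-1 (7.81%), ETS (23.8%), C/EBP (10.8%) and nuclear receptor motifs (16.3%) are not in the 3 windows. CpG pairs numbered 8 in the *Gpr50* window, 17 in that of *Mtnr1a* and 15 in that of *Mtnr1b*, and the median of all windows was 7. These matches are letters only, and the arrays do not measure binding.

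*Gpr50* read high in the GWAT of ob/ob mice and low in that of ob/ob/Fsp27-/- mice. Its RMA values were 8.94, 10.10 and 10.22 on ob/ob arrays 1, 2 and 3, and 5.07, 4.55 and 4.67 on ob/ob/Fsp27-/- arrays 1, 2 and 3. The genotypes lay far apart, and ob/ob array 1 was the lowest of its genotype. The means were 9.75 ± 0.707 (SD, n = 3) and 4.76 ± 0.272 (SD, n = 3), a measured log2 difference of −4.99. The double mutant's readings lie in the range of olfactory and vomeronasal receptor genes, taken as background, so its fold is a bound. Against the 95th percentile of those genes, *Gpr50* was at least 22.1-fold lower in the double mutant (4.46 log2 units). Leaving out 1 array at a time gave measured log2 differences from −5.40 (without ob/ob array 1) to −4.76 (without ob/ob array 3). Few genes varied more between ob/ob arrays: 99.4% of genes had a smaller SD there.

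**Figure D1:**
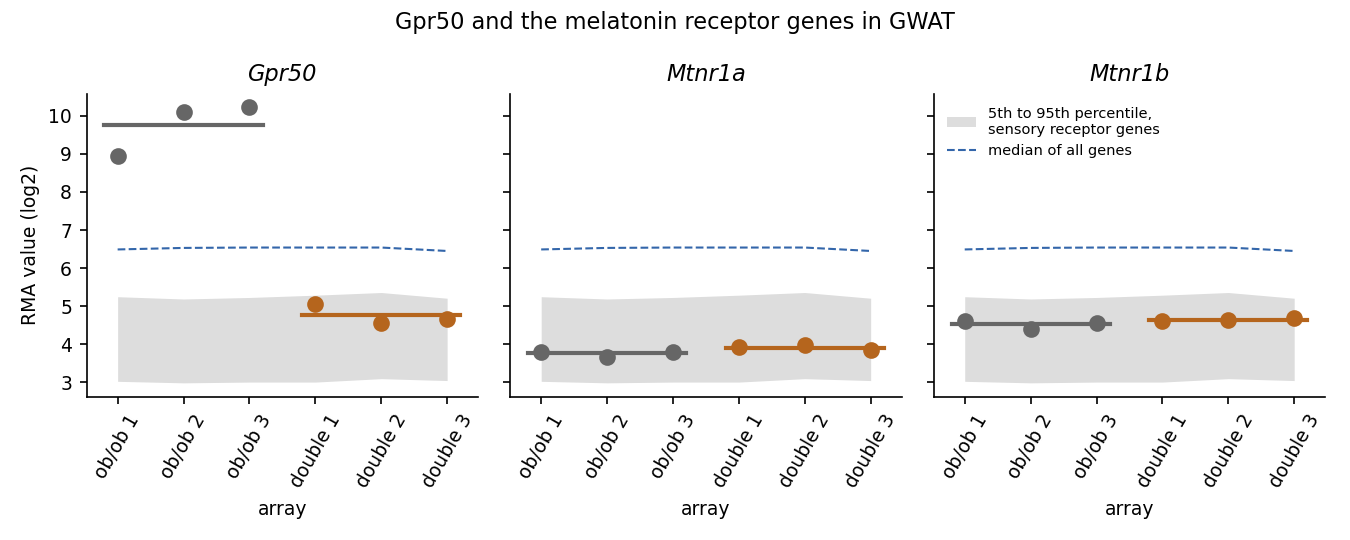
RMA values (log2) of *Gpr50*, *Mtnr1a* and *Mtnr1b* in GWAT, with 1 point per array (grey, ob/ob; brown, double for ob/ob/Fsp27-/-) and a bar for the genotype mean. The grey band spans the 5th to the 95th percentile of 1194 sensory receptor genes on each array and the dashed line is the median of all genes: *Gpr50* lies above both on the ob/ob arrays at 8.94 to 10.22 and in the band on the others, and the melatonin receptor genes lie in the band on all 6 arrays.

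Neither melatonin receptor gene passed the test between genotypes. *Mtnr1a* read 3.80, 3.67 and 3.81 on the ob/ob arrays and 3.92, 3.97 and 3.85 on the ob/ob/Fsp27-/- arrays. The genotypes did not overlap, as was so for 46.0% of all genes, but the gap was narrow. The log2 fold change was 0.15 (standard error 0.08, adjusted p = 0.212 from limma), with a 95% interval from −0.04 to 0.34. *Mtnr1b* read 4.62, 4.40 and 4.57 on the ob/ob arrays and 4.61, 4.64 and 4.69 on the others, and its genotypes overlapped. Its log2 fold change was 0.11 (standard error 0.086, adjusted p = 0.377 from limma), with a 95% interval from −0.09 to 0.32. Both intervals end below the log2 fold change of 0.5 that a call needs.

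How much of these readings is signal was gauged from 1194 genes of olfactory and vomeronasal receptors, most of which fat is not known to use, since the table holds no detection p-values. Probes differ in how they respond, so this is a rough guide to background and not a comparison of levels between genes. On the ob/ob arrays *Gpr50* read above all but 1 of these genes on array 1 and above all of them on arrays 2 and 3, at percentiles 84.7 to 95.5 of all genes. On the ob/ob/Fsp27-/- arrays it read between percentiles 83.2 and 93.0 of the sensory receptor genes, below the 95th percentile on all 3 arrays. The same held in at least 1 genotype for 10 of 143 called genes of the lists, neighbours and profiles described here, *Gpr50* included. *Adcy10* and *Gpr85*, the latter named for this reason only, read below it on all 6 arrays, so their calls rest on readings in this background range. Where a difference of another such gene is given below, its bound against the 95th percentile stands beside it. *Mtnr1a* lay between percentiles 56.4 and 63.0 of the sensory receptor genes on the 6 arrays, and *Mtnr1b* between percentiles 84.1 and 88.4. Melatonin receptor signal above this background was thus not detectable in either genotype, which limits what their test can show.

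Across genotypes *Gpr50* had the direction of macrophage genes and not that of adipocyte genes. Since it was chosen for its decrease, sharing the direction of any list that fell follows from that choice. Mast cell and stromal progenitor lists, counted below, had lower genes too. Calls took an adjusted p under 0.05 from limma together with an absolute log2 fold change of 0.5 or more. By these limits 20.4% of all genes were called, with 9.58% higher in the double mutant and 10.8% lower. Of 28 macrophage genes, 23 were lower and 0 higher (1 higher at an unadjusted p under 0.05), with a median log2 fold change of −2.07 against 0.06 for all genes. *Adgre1*, a surface marker of mouse macrophages, fell from 11.55 ± 0.0572 (SD, n = 3) to 8.34 ± 0.0492 (SD, n = 3), and *Cd68*, a lysosomal protein of macrophages, from 11.92 ± 0.104 (SD, n = 3) to 9.24 ± 0.25 (SD, n = 3). Of 21 genes of lipid-associated macrophages, which gather at dying adipocytes, 17 were lower and 0 higher (1 higher at an unadjusted p under 0.05), with a median of −2.14. *Trem2*, a lipid-sensing receptor, changed by −2.14 log2 units (standard error 0.14) and the integrin gene *Itgax*, which encodes CD11c, −3.61 (standard error 0.22). Of 25 adipocyte genes, 18 were higher and 0 lower (0 at an unadjusted p under 0.05), with a median of 0.95. Without array 2 or array 3 of the double mutant, 11 were higher. *Lpl* stands in both of the last lists. *Adipoq*, the adiponectin gene, rose from 11.16 ± 0.548 (SD, n = 3) to 12.36 ± 0.107 (SD, n = 3), and *Plin1*, the perilipin of the adipocyte droplet, was 0.86 log2 units higher (standard error 0.21, adjusted p = 0.0182 from limma).

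Within the ob/ob genotype the picture was different. *Gpr50* on array 1 lay 1.22 log2 units below the mean of arrays 2 and 3, and 52 of 19936 other genes lay further below. That measure was chosen after the values were seen, and it is given without a test. Adipocyte genes were also low on this array: 24 of 25 had their lowest ob/ob value there, against 34.2% of all genes, with a median of −0.68 on the same measure. This was not particular to them: of the 1910 genes called higher in the double mutant, which include 18 of the 25, 77.3% were lowest on ob/ob array 1, with a median of −0.25. *Adipoq* read 10.59, 11.22 and 11.68 on ob/ob arrays 1, 2 and 3. Macrophage genes as a list were not low on it, with 7 of 28 lowest there and a median of 0.10, nor were genes of lipid-associated macrophages, with 3 of 21 lowest there and a median of 0.23. Single macrophage genes were low there, among them *Cd163* (−0.78), *Lyve1* (−0.75) and *Fcgr1* (−0.44), named here after their values were seen. Of these only *Fcgr1* was called lower in the double mutant. *Adgre1* read 11.58, 11.58 and 11.48 on ob/ob arrays 1, 2 and 3, and *Itgax* 10.82, 10.63 and 10.11. Of the 2158 genes called lower in the double mutant, 12% were lowest on ob/ob array 1, and besides *Gpr50* 1 of them, *Itgad*, was as far below (−1.23). *Itgad*, a leukocyte integrin gene named here after its value was seen, read 7.26, 8.08 and 8.91 on the ob/ob arrays and 5.76 to 6.02 on the others. Endothelial genes (9 of 10) and mesothelial genes (8 of 9) were mostly lowest on ob/ob array 1 too. Whether the makeup of that sample has a part in the *Gpr50* reading was not tested.

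**Figure D2:**
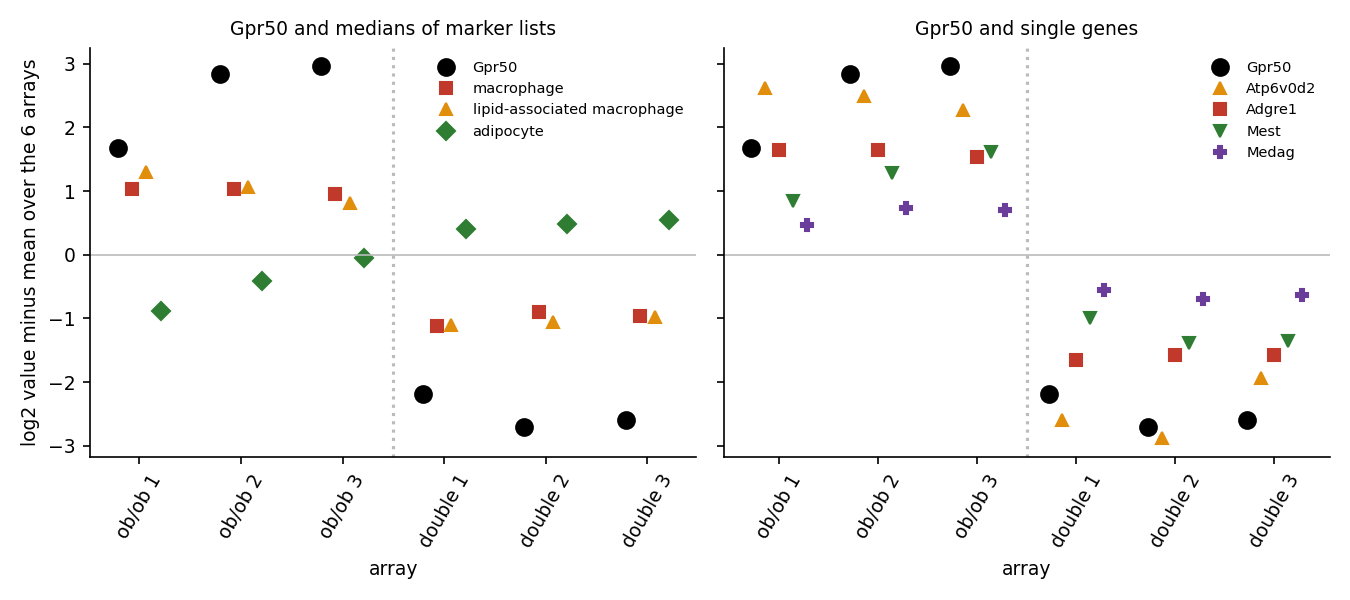
Log2 values minus each gene's mean over the 6 arrays, for *Gpr50* beside the medians of 3 marker lists (left) and beside single genes (right), with 1 point per array and double for ob/ob/Fsp27-/-; points are set side by side within an array. *Gpr50* shares the sign of the macrophage lists and of *Atp6v0d2*, *Adgre1*, *Mest* and *Medag*, but on ob/ob array 1 it stands at 1.68 against 2.84 and 2.96 on the other ob/ob arrays, a dip that the macrophage points do not have and that the adipocyte median has (−0.88 against −0.42 and −0.05); *Mest* and *Medag* were picked for their likeness to *Gpr50* over these arrays, so their dip is part of that choice.

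The genes most like *Gpr50* depended on how likeness was measured. By the distance between profiles over the 6 arrays, each centred on its own mean, the nearest were *Atp6v0d2* (distance 1.45 log2 units), *Tnip3* (1.54, in the sensory receptor range in the double mutant), *Cd72* (1.68), *Ctsk* (1.68), *Tm4sf19* (1.71), *Adam8* (1.73), *Rgs1* (1.76) and *Tlr13* (1.76). *Atp6v0d2* encodes part of the proton pump that acidifies lysosomes, *Ctsk* the protease cathepsin K, *Cd72* a coreceptor of B cells and *Tlr13* a sensor of bacterial RNA. Of the 9 B cell genes counted below, 1 was called higher and 0 lower. *Atp6v0d2* read 12.05, 11.93 and 11.70 on the ob/ob arrays and 6.84, 6.55 and 7.49 on the others. This distance is set largely by the size of the fall for which *Gpr50* was chosen, so it favours genes with a large fall. For deviations from the genotype means, Pearson r with *Gpr50* was 0.357 for *Ctsk* and negative for the others, from −0.172 (*Cd72*) to −0.759 (*Tlr13*). By Pearson r over the 6 arrays, which takes shape and not size, the first were *Medag* (r = 0.999), *Reps2* (0.999), *Stim2* (0.999) and *Mest* (0.997). *Mapk14* (0.997), *D130040H23Rik* (0.997), *Il18* (0.997) and *Rpl10* (0.996) followed, and 0 of the first 8 genes were shared between the measures. These 8 are named here after their values were seen. *Mest*, which is known to mark fat expansion in mice, read 10.50, 10.93 and 11.27 on the ob/ob arrays and 8.66, 8.26 and 8.29 on the others. It is low on ob/ob array 1 as *Gpr50* is, which the choice by r favours. *Medag*, a gene tied to adipocyte differentiation, read 8.51, 8.78 and 8.76 and then 7.50, 7.35 and 7.41. The log2 fold changes were −2.50 for *Mest* (standard error 0.20, adjusted p = 0.000235 from limma) and −1.26 for *Medag* (standard error 0.10, adjusted p = 0.000209 from limma). With 3 arrays in each of the separated genotypes r is high for any gene that fell, and it was over 0.9 for 1993 of 19936 genes, so it is given as a description.

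Genes of the melatonin pathway and of the signalling behind the receptors were called in both directions. Over 10 such lists 14 of 108 measured genes were higher (13.0%) and 24 lower (22.2%), beside 9.58% and 10.8% of all genes, and their median log2 fold change of 0.03 was near the 0.06 of all genes. With the arrays centred on 12 housekeeping genes the counts turned to 20 higher and 17 lower. All genes turned with them, from 1910 higher and 2158 lower to 3265 higher and 1548 lower. The counts of the lists thus depend on the scaling, as those of all genes do. Without *Gusb* in that centring the lists had 15 higher and 24 lower genes. Of melatonin synthesis, 4 genes were measured and 0 called (1 lower at an unadjusted p under 0.05, limma). *Tph1*, which encodes the tryptophan hydroxylase of peripheral tissues, read 6.48, 5.85 and 5.09 on the ob/ob arrays and 5.0, 4.95 and 4.83 on the others, which is −0.88 on the log2 scale (standard error 0.31, adjusted p = 0.0764 from limma). *Tph1* lay in the sensory receptor range on ob/ob array 3 and in the double mutant, and no bound was computed for it. The ob/ob arrays spread widely for it, and its value rested on single arrays: without ob/ob array 3 it was called at −1.24 (adjusted p = 0.00467 from limma), and without ob/ob array 1 it was −0.54 and not called (adjusted p = 0.13). *Tph1* is also known from mast cells, and of 9 mast cell genes 5 were lower and 0 higher (0 at an unadjusted p under 0.05), whose part in this reading was not tested. *Aanat*, which encodes the acetyltransferase that sets the melatonin rhythm, read 5.04 to 5.20 in ob/ob and 5.07 to 5.34 in ob/ob/Fsp27-/- mice, with overlap. These readings lie in the sensory receptor range on all 6 arrays, so expression above background was not shown. *Tph2* had a log2 fold change of 0.04 and *Ddc*, the decarboxylase gene, 0.12, and neither passed. *Ddc* lay in the sensory receptor range except on ob/ob/Fsp27-/- array 1.

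Of 13 genes of melatonin and tryptophan breakdown, 2 were higher (15.4%) and 1 lower (7.69%), beside 9.58% and 10.8% of all genes. *Cyp1a1*, a cytochrome that hydroxylates melatonin, read 4.60, 4.65 and 4.75 on the ob/ob arrays and 6.18, 6.28 and 6.86 on the others, and was 1.77 log2 units higher as measured (standard error 0.18, adjusted p = 0.000477 from limma). Its ob/ob readings lie in the sensory receptor range, against whose edge it was at least 2.32-fold higher. *Maob*, a monoamine oxidase gene, was 1.56 log2 units higher (standard error 0.26), and *Cyp1b1*, a related cytochrome gene, changed by −1.10 (standard error 0.27). Other proteins have been proposed to bind melatonin. Among them *Nqo2*, the quinone reductase once called MT3, fell from 9.18 ± 0.145 (SD, n = 3) to 8.21 ± 0.192 (SD, n = 3), and *Calm2*, a calmodulin gene, changed by −0.75 log2 units (standard error 0.10). *Rora*, a nuclear receptor gene, rose from 8.32 ± 0.136 (SD, n = 3) to 9.09 ± 0.103 (SD, n = 3), while *Rorb* (log2 fold change 0.14) and *Calm3* (−0.10) did not pass. *Rorb* lay in the sensory receptor range on all 6 arrays.

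Of 5 genes whose proteins have been reported to bind GPR50 or act with it, 2 were lower and 0 higher (0 at an unadjusted p under 0.05, limma). Of all genes 10.8% were lower and 9.58% higher. *Tgfbr1*, the type I receptor of TGF-beta, read 9.35, 9.20 and 9.11 on the ob/ob arrays and 8.18, 8.06 and 7.95 on the others, which differ by −1.16 log2 units (standard error 0.10, adjusted p = 0.000291 from limma). Its genotypes lay apart and its arrays close together. *Rtn4*, which encodes the neurite inhibitor Nogo, changed by −0.68 log2 units (standard error 0.12, adjusted p = 0.00487 from limma), which fell short of the fold threshold at −0.49 when the arrays were centred on housekeeping genes. *Kat5*, the acetyltransferase TIP60, had a log2 fold change of −0.16, *Nr3c1*, the glucocorticoid receptor gene, 0.06 and *Lepr*, the leptin receptor gene, 0.03, and none of these passed. *Lepr* lay in the sensory receptor range on all 6 arrays, so its expression above background was not shown.

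**Figure D3:**
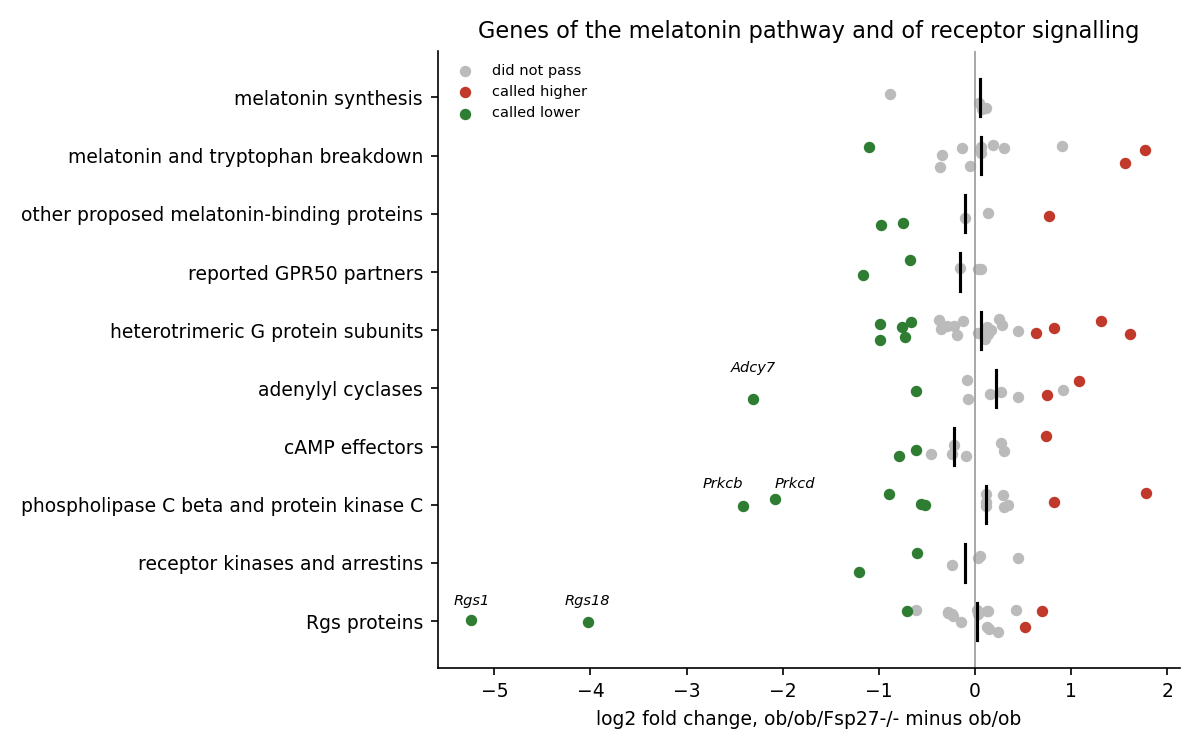
Log2 fold changes (ob/ob/Fsp27-/- minus ob/ob) of the measured genes of 10 lists of the melatonin pathway and of receptor signalling, with 1 point per gene (red, called higher; green, called lower; grey, did not pass) and a black bar at the median of each list. The medians lie between −0.22 and 0.22, and *Rgs1* (−5.24) and *Rgs18* (−4.03) stand furthest out, the first with its double mutant readings in the range of the sensory receptor genes.

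Calls were split in direction among the proteins that carry the signal of receptors coupled to inhibitory G proteins. Of 24 G protein subunit genes, 4 were higher (16.7%) and 5 lower (20.8%), beside 9.58% and 10.8% of all genes. *Gnao1* (log2 fold change 1.61) and *Gnai1* (0.82), which encode alpha subunits of the inhibitory class, were higher, and *Gnai2* (−0.73) and *Gnai3* (−0.76) of the same class were lower. *Gnai2* read 11.35 to 11.47 in ob/ob and 10.59 to 10.75 in ob/ob/Fsp27-/- mice. Of 10 adenylyl cyclases, some of which these subunits inhibit, 2 were higher and 2 lower. Among the higher ones *Adcy10* lay in the sensory receptor range in both genotypes. *Adcy7*, the cyclase of leukocytes, fell from 9.69 ± 0.189 (SD, n = 3) to 7.37 ± 0.281 (SD, n = 3), and *Adcy6* rose from 8.38 ± 0.378 (SD, n = 3) to 9.45 ± 0.0137 (SD, n = 3). Of 9 effectors of cyclic AMP, *Prkar2b* was higher (0.74), and *Creb1* (−0.79) and *Prkacb* (−0.61) were lower. Of 13 genes of phospholipase C beta, protein kinase C and inositol trisphosphate receptors, 2 were higher, among them *Prkce* (1.78), and 5 lower, among them *Prkcb* (−2.41) and *Prkcd* (−2.08). Of 6 genes of receptor kinases and arrestins, 2 were lower and 0 higher (1 at an unadjusted p under 0.05, limma), and both were arrestins, *Arrb2* (−1.21) and *Arrb1* (−0.60). Of 19 genes of Rgs proteins, which switch G proteins off, 2 were higher and 3 lower. *Rgs1*, found in leukocytes, read 10.25, 10.02 and 9.27 on the ob/ob arrays and 4.43, 4.49 and 4.90 on the others. The latter lie in the sensory receptor range, so it was at least 23.6-fold lower in the double mutant. Many genes in these lists are shared by leukocytes and adipocytes, and how far the macrophage and adipocyte counts above carry their changes was not tested.

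Among genes named with a Gpr number, such a change was not general. Besides *Gpr50*, 64 were measured, of which 7 were lower (10.9%) and 3 higher (4.69%), near or under the share of all genes, with a median log2 fold change of 0.04. Among the 7 lower genes *Gpr85* lay in the sensory receptor range in both genotypes. *Gpr65*, a proton-sensing receptor of leukocytes, read 8.44, 8.50 and 7.96 on the ob/ob arrays and 5.42, 5.62 and 6.0 on the others, so it differed by −2.62 (standard error 0.19, adjusted p = 0.000156 from limma). *Gpr176* (−1.43), *Gpr183*, an oxysterol receptor that guides leukocytes (−1.09), and *Gpr34*, a receptor of myeloid cells (−1.01), followed. *Gpr34* was in the sensory receptor range in the double mutant, and its bound is 1.32-fold lower. *Gpr135* (0.81), *Gpr63* (0.70) and *Gpr137* (0.63) were the higher ones.

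**Figure D4:**
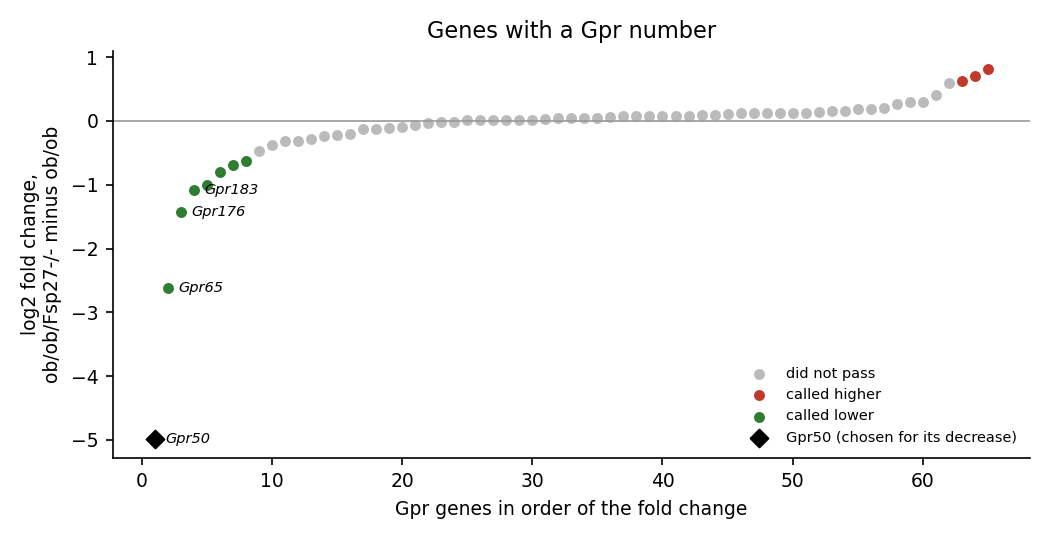
Log2 fold changes (ob/ob/Fsp27-/- minus ob/ob) of *Gpr50* and 64 other genes with a Gpr number, in the order of their fold change (red, called higher; green, called lower; grey, did not pass; black diamond, *Gpr50*). *Gpr50* stands at −4.99 and the next gene, *Gpr65*, at −2.62.

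The genes beside the members on their chromosomes did not move as one. Over all genes 9.58% were higher and 10.8% lower. Of the 5 protein-coding genes on each side of *Gpr50* in the RefSeq order, 8 were measured, 2 of them higher and 2 lower. Its nearest measured neighbours were *Hmgb3* (log2 fold change 0.87, standard error 0.13) and *Cd99l2* (0.52, standard error 0.13) on one side, both higher, and *Vma21* (−0.64, standard error 0.12) on the other, which was lower, as was *Mamld1* (−1.37, standard error 0.15) further out. *Prrg3* read 7.74, 8.49 and 8.57 on the ob/ob arrays and 7.73 to 7.78 on the others. It did not pass (adjusted p = 0.109 from limma), and its ob/ob array 1 was at the level of the double mutant. Of 7 measured neighbours of *Mtnr1a*, *Fam149a* was higher (0.71) and *Tlr3* lower (−0.51). Of 10 neighbours of *Mtnr1b*, 3 were lower and 0 higher (2 at an unadjusted p under 0.05, limma). *Fat3*, a protocadherin gene next to *Mtnr1b*, read 9.11, 8.62 and 7.88 on the ob/ob arrays and 5.92, 5.21 and 4.94 on the others, which differ by −3.18 log2 units (standard error 0.35, adjusted p = 0.000758 from limma), while *Mtnr1b* itself did not pass. On arrays 2 and 3 of the double mutant *Fat3* lay in the sensory receptor range, and no bound was computed for it.

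Markers of tanycytes and the pituitary, where *Gpr50* is known, and of other cells in or beside this depot were looked at. Of 11 genes of tanycytes and the pituitary, 1 was higher and 0 lower (0 at an unadjusted p under 0.05, limma), and of 14 genes of the epididymis and testis, which adjoin this fat depot, 1 was lower and 0 higher (0 at an unadjusted p under 0.05). The higher gene was *Dio2* (log2 fold change 0.53) and the lower one *Prm1* (−0.93). Some genes of the first list and most of the second lay in the sensory receptor range on all 6 arrays, where a fall could hardly show. Of 11 stromal progenitor genes 6 were lower and 0 higher (0 at an unadjusted p under 0.05), and of 10 endothelial genes 6 were higher and 0 lower (0 at an unadjusted p under 0.05). Of 13 T cell genes 1 was higher and 0 lower (2 at an unadjusted p under 0.05), of 9 B cell genes 1 was higher and 0 lower (0 at an unadjusted p under 0.05), and of 9 mesothelial genes 0 were called (0 at an unadjusted p under 0.05). The called B cell gene was *Ebf1* (log2 fold change 0.59). At an unadjusted p under 0.05 (limma) 6 of the 9 B cell genes were higher, beside 4167 of 19937 genes. Beside the counts of called genes stand 9.58% of all genes higher and 10.8% lower. The part of these lists in the *Gpr50* reading was not tested. *Cidec*, the gene of Fsp27, read 11.49, 11.78 and 11.98 on the ob/ob arrays and 11.34, 11.51 and 11.53 on the others, with overlap. Where its probes lie relative to the deleted part is not given in the sources used here, so this reading does not check the labels. The array medians over all probesets lay between 6.02 and 6.10.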

How the data were processed

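RNA of GWAT was hybridized to 6 GeneChip arrays (Mouse Gene 1.0 ST), which the labels divide into 3 of each genotype. The deposited values are log2 RMA values, which the authors made by background adjustment, quantile normalization and a summary per probeset. RMA and limma are named without versions in the submitters' processing notes, and the genome build is not given in the sources used here. Of 34760 probesets, 22961 with at least 1 gene symbol were tested, and 19937 genes were counted over probesets with 1 symbol, the one with the highest mean standing for its gene. Symbols of 21553 probesets were brought up to date by Entrez number from the RefSeq table of GRCm38.p6, which also gave the order of genes. The study's filter on detection above background was not repeated.

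The double mutant was set against ob/ob by lmFit and eBayes of limma 3.58.1 under R 4.3.3, without covariates, and p-values were adjusted by Benjamini-Hochberg over all probesets tested. Calls needed an adjusted p under 0.05 and an absolute log2 fold change of at least 0.5. The procedure was tested on simulated data. Plots came from matplotlib 3.10.9 under python 3.11.15. The members and gene lists were chosen with earlier results of these data known. Genes were named by rule: the members, their pathway's smaller lists, up to 4 called genes per direction of other lists with Adgre1, Cd68, Trem2, Itgax, Adipoq, Plin1 and Cidec, the 8 nearest profiles, up to 4 called Gpr genes per direction and 5 neighbours per side. Alternatives were other scalings, filters, spread models, likeness measures and leaving out each array. The precision is limited by 3 arrays per genotype, and no depth applies to arrays.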

Additional observations from a re-analysis of the deposited data

How the results depend on the processing

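The log2 difference of *Gpr50* lay between −5.12 and −4.81 under other scalings, filters and spread models, and between −5.40 and −4.76 when 1 array was left out. *Mtnr1a* and *Mtnr1b* were not called under any alternative that tested them, and both filters on low values removed them. Centring on 12 housekeeping genes moved the median of all genes from 0.06 to 0.24 and gave *Mtnr1a* 0.33 (adjusted p = 0.027 from limma) and *Mtnr1b* 0.30 (adjusted p = 0.036), under the fold threshold, where the adjusted p over all alternatives ran from 0.027 to 0.498 and from 0.036 to 0.769. *Gusb* was called lower among these 12 genes (−2.14) and *Sdha* higher (1.07). In that centring 3265 of all genes were higher and 1548 lower (67.8% of calls higher, against 47.0%), *Gpr4* and *Gpr182* brought the other higher Gpr genes to 5, and 1 gene of lipid-associated macrophages, *Fabp5*, was higher. Chosen after seeing the data, the same centring except *Gusb* gave a median of 0.06, 1945 higher and 2158 lower genes and adjusted p = 0.288 and 0.408 for the receptors (limma), and except *Gusb* and *Sdha* a median of 0.17, 2609 higher and 1754 lower genes (59.8% higher) and adjusted p = 0.0787 and 0.104. The pathway lists then had 15 higher and 24 lower, and 19 higher and 20 lower genes. Without a fold threshold 2936 genes were higher, and with one of 1, 652 were higher and 955 lower. Leaving out 1 array gave 11 to 19 higher adipocyte genes, 0 to 1 higher genes of lipid-associated macrophages (*Fabp5*, without ob/ob/Fsp27-/- array 2) and 1620 to 2120 higher genes in all. Pearson r over the arrays and r of the deviations from the genotype means each shared 0 of 8 nearest genes with the distance measure. *Tph1* was called with array weights (−0.90, adjusted p = 0.0389 from limma). Other causes were not tested. Each member has 1 probeset, so no other probeset could be tried. No paired analysis was possible because the labels give no replicate number shared by the genotypes.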
